A study of Mus musculus with 244 samples.

Results

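Cathepsins and legumain are proteases that work mainly in lysosomes, and 10 of the 24475 genes in the expression table belong to the set described here: Ctsa, Ctsb, Ctsc, Ctsd, Ctsh, Ctsk, Ctsl, Ctss, Ctsz and Lgmn. They were taken by gene symbol, and all 10 were found. The values come from single macrophages of the aortic arch of mice with atherosclerosis. Baseline cells came from Apoe-/- donors that ate a high fat diet for 16 weeks. Regression cells came from arches of such donors that were grafted into WT mice on chow and taken 3 days after surgery. All cells were sorted as CD45+ CD11b+ F4/80+ and entered a C1 capture chip, and each library is that of 1 cell.

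Cathepsins are made as inactive precursors, are carried to endosomes and lysosomes largely by mannose 6-phosphate receptors, and become active when a propeptide is cut off at acid pH. Most of the set are cysteine proteases of the papain family, whereas cathepsin D is an aspartic protease, cathepsin A a serine carboxypeptidase and legumain a cysteine protease of another family that cuts after asparagine. In plaque macrophages they break down lipoproteins and engulfed cells, trim antigens and the class II invariant chain, and, when released, can cut elastin and collagen.

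The 244 libraries held 128 baseline and 116 regression libraries. In 3 baseline pairs the libraries were near copies (r of 0.992 to 0.997, while all other pairs of libraries had an r of 0.654 or less) and each pair was averaged to 1 cell, and 3 regression cells with fewer than 1000 genes were left out. This left 125 baseline and 113 regression cells. The median cell listed 2491 genes at baseline and 2360 in regression, where "listed" means an RPKM (reads scaled to the length of the transcript and the depth of the library) of 1 or more. Depth could be estimated for 78 baseline libraries (0.409 to 8.20 M reads, median 1.15) and 65 regression libraries (0.397 to 7.99, median 0.961). Ribosomal protein genes held a median of 9.00% of summed RPKM at baseline and 13.1% in regression. Apoe, which the donors lacked, was listed in 9 of 125 baseline cells (median log2 value 0, highest 7.49) and in 112 of 113 regression cells (lowest 0.74, median 12.41, highest 16.30). At least 3 of 10 macrophage markers were listed in 123 baseline and 112 regression cells. The labels' protocol text speaks of islet cells, while the other labels say macrophage.

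No label names an animal, so each group counts as 1 sample, and the differences below carry neither a replicate check nor a test. Levels are means of log2(RPKM + 1) with the SD over cells, and a difference is the regression mean minus the baseline mean on that scale, where differences of low genes come out too small. Sample numbers run in 5 stretches with 1 condition each: regression 1 to 20 (20 cells), baseline 21 to 92 (69), regression 93 to 111 (18), baseline 112 to 167 (56) and regression 168 to 244 (75). The sources used here do not give what a stretch stands for, and stretch and group cannot be told apart within any of them. For each member, every regression stretch was also set against every baseline stretch, which gives 6 pairings. Host Apoe genotype, diet, surgery and the listing of Apoe in the cells themselves differ together between the groups and cannot be told apart. Whether a regression cell stems from the donor or the host was not tested.

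Single members of the set went in opposite directions, while the set's total was close between the groups taken as a whole. Ctsl, an endopeptidase with elastin-cutting activity, was higher in regression by 3.48, and Ctsd by 2.10, whereas Ctsa was lower, with a difference of -1.13. In some settings given below, the difference of Ctsa was smaller in size than 1. The 2 most abundant members, Ctss and Ctsb, differed by 0.29 and -0.28. The summed RPKM of the 10 members per cell had a lowest value of 1492, a median of 8126 and a highest of 28356 at baseline, and 2511, 8616 and 24563 in regression. These ranges overlap almost fully. On the log2 scale the sum was 12.95 ± 0.79 at baseline (mean and SD, 125 cells) and 13.07 ± 0.67 in regression (113 cells). By stretch, the mean was 12.66, 12.99, 13.04, 12.89 and 13.19 in number order. The regression stretch means thus lay on both sides of the baseline ones. The set held a median of 1.29% of all summed RPKM at baseline and 1.22% in regression, where stretch medians ran from 0.992 to 1.35%.

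Differences were read against 3946 genes that were listed in 25% or more of the cells of either group. Of the 10 members, 9 passed this filter, and Ctsk did not. A difference of 1 or more, on the higher side, was found in 2 members (Ctsl and Ctsd), and in 5.60% of all genes that passed. A difference of -1 or less was found in 1 member (Ctsa), and in 7.37% of all genes. The 3 regression stretch means all lay above both baseline stretch means in 2 members, Ctsl and Ctsd, and in 12.4% of all genes. They all lay below in 1 member, Ctsa, and in 18.3% of all genes. The 1 of 9 members on the lower side is not far from these shares of all genes (7.37% by size, 18.3% by stretches). In the other 6 members that passed, stretch means of the groups overlapped. The median difference was 0.13 for the 9 members and -0.05 for all genes, with 6 members above 0 and 3 below.

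**Figure D1:**
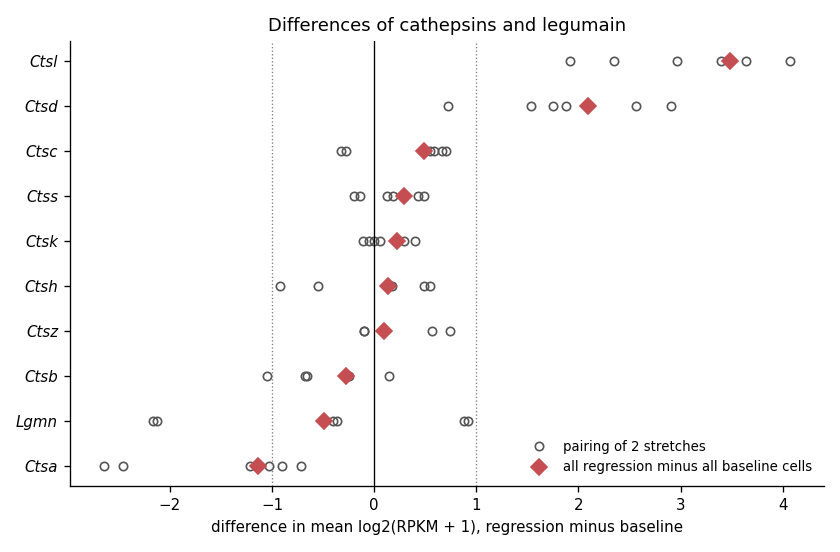
Differences of the members between regression and baseline, in log2(RPKM + 1) units, with diamonds for all cells, open points for the 6 pairings of stretches and dotted lines at -1 and 1. Ctsl and Ctsd lie above 0 and Ctsa lies below 0 in all 6 pairings, and the points of the other members that passed the filter fall on both sides.

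Ctsl (gene 13039, chromosome 13, 64359337 to 64370890, minus strand, mm10) differed most. Its log2 values at baseline had a lowest of 0, a median of 4.01 and a highest of 11.05, and in regression 0, 8.59 and 12.42. The groups overlap over most of the range, but the median of each regression stretch lies above the median of both baseline stretches. The mean was 4.19 ± 3.90 in the 125 baseline cells and 7.67 ± 3.31 in the 113 regression cells. Stretch means were 7.39 in regression cells 1 to 20, 4.00 in baseline cells 21 to 92, 6.35 in regression cells 93 to 111, 4.43 in baseline cells 112 to 167 and 8.06 in regression cells 168 to 244. The 6 pairings ran from 1.92 to 4.07.

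Both the share of cells that listed Ctsl and the level in those cells were higher in regression. Ctsl was listed in 77 of 125 baseline cells (61.6%, exact Clopper-Pearson 95% CI 52.5 to 70.2%) and 103 of 113 regression cells (91.2%, CI 84.3 to 95.7%), and these confidence intervals (CI) cover counting error only. By stretch, the shares were 90.0%, 60.9%, 88.9%, 62.5% and 92.0% in number order. In cells that listed it, the mean was 6.79 ± 2.63 at baseline and 8.41 ± 2.40 in regression. An RPKM of 100 or more was reached by 44 baseline cells (35.2%, CI 26.9 to 44.2%) and 83 regression cells (73.5%, CI 64.3 to 81.3%). The median RPKM was 15.1 at baseline and 385.6 in regression. Within stretches, Ctsl went with the number of genes a cell listed (mean r over the 5 stretches 0.40, from 0.22 to 0.66). The median cell listed 2491 genes at baseline and 2360 in regression, where stretch medians ran from 1892.5 to 2669. The part of this number in the difference of Ctsl was not tested.

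Ctsd (gene 13033, chromosome 7, 142375911 to 142388038, minus strand), the aspartic protease of lysosomes that also helps to process other cathepsins, had the next highest difference. Its log2 values had a lowest of 0, a median of 7.63 and a highest of 11.85 at baseline, and 0, 9.08 and 12.17 in regression. The means were 6.30 ± 3.75 and 8.40 ± 2.49, and the 6 pairings ran from 0.72 to 2.91. Regression stretch means were 8.30, 7.48 and 8.64, and baseline stretch means 6.76 and 5.74, in number order. In regression more cells listed the gene, and the difference was smaller within listing cells. Ctsd was listed in 100 of 125 baseline cells (80.0%, CI 71.9 to 86.6%) and 110 of 113 regression cells (97.3%, CI 92.4 to 99.4%), and in listing cells the means were 7.85 ± 2.34 and 8.62 ± 2.09, a difference of 0.77. With the log2 ratio of mean RPKM, where the highest cells weigh most, the differences were 0.72 for Ctsd and 1.80 for Ctsl. Exons of Ctsd share 808 bases with Gm49369, and those of Ctsl 1742 bases with the antisense gene Gm47123 and 395 with the pseudogene Gm49230, for which no row of the table was used.

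Ctsl and Ctsd were listed together in 72 baseline cells (57.6%, CI 48.4 to 66.4%) and 101 regression cells (89.4%, CI 82.2 to 94.4%). Baseline cells that listed neither numbered 20 (16.0%), against 1 in regression (0.88%). Cells with Ctsd alone numbered 28 at baseline and 9 in regression, and cells with Ctsl alone 5 and 2. The missing member in a cell that listed only 1 of them was therefore mostly Ctsl in both groups.

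Ctsa (gene 19025, chromosome 2, 164832873 to 164841032, plus strand) went the other way. The serine carboxypeptidase it encodes also forms a complex in lysosomes that protects neuraminidase 1 and beta-galactosidase. Its log2 values had a lowest of 0, a median of 8.69 and a highest of 11.40 at baseline, and 0, 7.47 and 11.19 in regression. The means were 8.15 ± 2.44 and 7.01 ± 2.72. Regression stretch means were 7.03, 5.60 and 7.35, and baseline stretch means 8.06 and 8.25. The stretch means of the groups thus do not overlap, though the values of single cells do. The pairings ran from -2.64 to -0.72.

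In contrast to Ctsl, nearly as many cells listed Ctsa in both groups, and the level in those cells differed. It was listed in 119 of 125 baseline cells (95.2%, CI 89.8 to 98.2%) and 106 of 113 regression cells (93.8%, CI 87.7 to 97.5%). In listing cells the means were 8.55 ± 1.68 and 7.47 ± 2.14, which differ by -1.09. An RPKM of 100 or more was reached by 84.0% of baseline cells (CI 76.4 to 89.9%) and 63.7% of regression cells (CI 54.1 to 72.6%). Exons of Ctsa share 495 bases with Pltp, which encodes phospholipid transfer protein and lies on the opposite strand, and 324 bases with Neurl2. The library kit does not mark strand, and Pltp itself was at 5.31 ± 3.83 at baseline and 3.90 ± 3.57 in regression. In the 35 baseline and 44 regression cells that did not list Pltp, Ctsa was at 7.54 ± 3.35 and 7.06 ± 2.88, a difference of -0.49. Over all cells, the difference of Ctsa was also smaller in size than 1 without regression cells 93 to 111 (-0.87), in cells with at least 2000 genes (-0.64) and as the log2 ratio of mean RPKM (-0.73).

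The 3 members with stretch means of the groups apart are shown with the sequence around their start sites. The reason is that promoters of many lysosomal genes hold the letters CACGTG, the core of the element that factors of the TFEB family bind. RefSeq windows of 300 bases on GRCm38.p6, from 250 before to 50 after a start site, were found for 8 of the 10 members. Both strands were searched for CACGTG and for TCACGTGA, which reads the same on both strands and contains the first. CACGTG was found in 4 of the 8 members, against 8.09% of 27025 genes with such windows, and TCACGTGA in 2 of the 8, against 1.12% of genes. By window, CACGTG was in 4 of the members' 10 and in 7.15% of all 32851, and TCACGTGA in 2 of the 10 and in 0.974% of all. The windows shown are chr7:142387778-142388077 for Ctsd (minus strand), chr13:64370471-64370770 for Ctsl (minus strand) and chr2:164833523-164833822 for Ctsa (plus strand, the later of 2 listed starts). Capitals mark the letters found, and each sequence is read along its gene's strand.
Ctsd: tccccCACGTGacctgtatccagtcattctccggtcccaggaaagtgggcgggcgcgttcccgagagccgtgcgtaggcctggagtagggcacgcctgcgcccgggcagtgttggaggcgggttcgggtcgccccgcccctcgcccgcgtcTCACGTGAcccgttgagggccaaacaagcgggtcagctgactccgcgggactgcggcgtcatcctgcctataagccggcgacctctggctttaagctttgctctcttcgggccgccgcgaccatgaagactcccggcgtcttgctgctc
Ctsl: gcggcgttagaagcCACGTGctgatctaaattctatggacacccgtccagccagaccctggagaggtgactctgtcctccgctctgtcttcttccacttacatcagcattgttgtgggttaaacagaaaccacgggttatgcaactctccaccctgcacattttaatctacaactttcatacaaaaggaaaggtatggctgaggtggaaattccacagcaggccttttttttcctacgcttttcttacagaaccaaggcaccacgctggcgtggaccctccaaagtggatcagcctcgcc
Ctsa: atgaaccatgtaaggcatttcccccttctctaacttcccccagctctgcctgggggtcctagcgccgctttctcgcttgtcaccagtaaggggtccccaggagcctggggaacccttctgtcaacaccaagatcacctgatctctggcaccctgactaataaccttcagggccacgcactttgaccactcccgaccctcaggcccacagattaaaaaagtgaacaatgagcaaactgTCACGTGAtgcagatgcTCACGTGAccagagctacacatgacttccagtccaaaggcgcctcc

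The Ctsd window holds CACGTG 245 bases before the start and TCACGTGA around a CACGTG that begins 98 bases before it. Ctsl holds a single CACGTG 236 bases before its listed start and no TCACGTGA. This window lies wholly within the span given above for Ctsl (64359337 to 64370890), so that start is not the outermost annotated one. Ctsa holds TCACGTGA at both places, with the CACGTG beginning 12 bases before and 5 bases after the start, while its earlier listed start has neither. Lgmn has 1 CACGTG at 49 bases before 1 of its 2 listed starts and none at the other, and the windows of Ctsc, Ctsk, Ctss and Ctsz have none. A match is a description of letters and says nothing of binding, and the 2 members that were higher in regression and the 1 that was lower all hold CACGTG, for Ctsa at its later start alone.

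Ctsa and Ctsl can also be set side by side within each cell, where scaling of the cell does not change which is higher. The mean log2 differences below still depend on scaling through the added 1 where a gene is low. All these values draw on the same cells as the group differences. Ctsl lay above Ctsa in 25 of 125 baseline cells (20.0%, CI 13.4 to 28.1%) and in 73 of 113 regression cells (64.6%, CI 55.0 to 73.4%). By stretch the shares were 60.0%, 15.9%, 55.6%, 25.0% and 68.0%. The mean log2 difference of Ctsl minus Ctsa within a cell was -3.96 ± 4.25 at baseline and 0.66 ± 3.85 in regression. Ctsd lay above Ctsa in 34.4% of baseline cells (CI 26.1 to 43.4%) and 76.1% of regression cells (CI 67.2 to 83.6%). Lgmn lay above Ctsl in 74.4% of baseline cells (CI 65.8 to 81.8%) and 40.7% of regression cells (CI 31.6 to 50.4%). The regression stretches were not alike in this last share, at 25.0%, 72.2% and 37.3%.

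**Figure D2:**
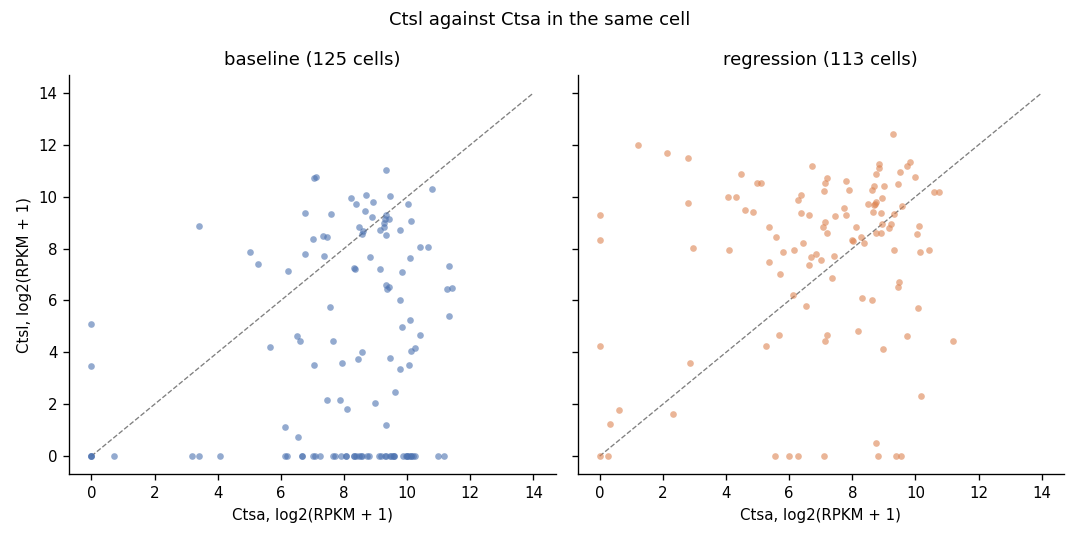
Ctsl against Ctsa in each cell, both as log2(RPKM + 1), for 125 baseline and 113 regression cells, with a dashed line where both are equal. Ctsl lies above Ctsa in 20.0% of baseline cells and 64.6% of regression cells.

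Ctss and Ctsb, the most abundant members, were listed in every cell of both groups. Ctss (gene 13040, chromosome 3, 95526786 to 95556403, plus strand), which trims the invariant chain of class II molecules and remains active at neutral pH, had log2 values with a lowest of 5.23, a median of 11.31 and a highest of 13.94 at baseline, and 7.90, 11.55 and 13.61 in regression. The groups overlap fully at the top. Its means were 11.15 ± 1.23 and 11.44 ± 1.05, and 4 of 6 pairings were above 0, from -0.20 to 0.49. Without regression cells 168 to 244 the difference of Ctss was -0.02. It held 33.7% of the members' summed RPKM at baseline and 36.0% in regression, and its median rank among all genes of a cell was 33 in both groups.

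Ctsb (gene 13030, chromosome 14, 63122462 to 63145923, plus strand), an endopeptidase that also removes dipeptides from the end of a chain, had means of 10.48 ± 2.19 and 10.21 ± 1.55, and 1 of 6 pairings was above 0, from -1.05 to 0.14. Its median RPKM was 1874 at baseline and 1284 in regression, and its share of the members' sum was 25.3% and 18.5%. Ctsb was the highest member in 42 baseline and 25 regression cells, and Ctss in 68 and 73. Ctss lay above Ctsb in 61.6% of baseline and 74.3% of regression cells. Exons of Ctsb share 774 bases with Fdft1, which was listed in 19 libraries.

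**Figure D3:**
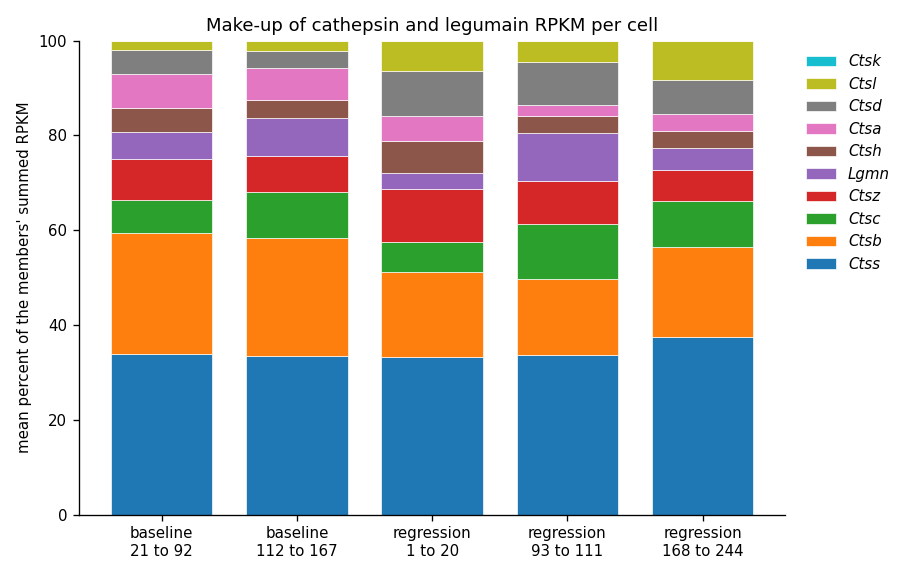
Mean share, in percent, of each member in the summed RPKM of the 10 members per cell, as stacked bars for the 5 stretches of sample numbers. Ctss and Ctsb hold the largest shares in every stretch. Ctsl and Ctsd are wider, and Ctsb and Ctsa narrower, in the 3 regression bars than in the 2 baseline bars.

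The share of the sum makes the exchange between members visible. Ctsl held 2.06% of the members' sum at baseline and 7.20% in regression, and Ctsd 4.42% and 7.98%. Ctsa held 7.02% and 3.68%, Ctsb 25.3% and 18.5%, and Lgmn 6.75% and 5.29%. The shares of Ctsc (8.25% and 9.30%), Ctsh (4.44% and 4.07%) and Ctsz (8.10% and 7.90%) lay close together.

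Ctsc, Ctsh and Ctsz are exopeptidases, which cut at the ends of chains. Ctsc (gene 13032, chromosome 7, 88278085 to 88310888, plus strand), which activates serine proteases of immune cells, had means of 8.02 ± 2.69 and 8.51 ± 2.84, with pairings from -0.32 to 0.71. Ctsh (gene 13036, chromosome 9, 90054152 to 90076089, plus strand), an aminopeptidase, had means of 6.96 ± 3.06 and 7.09 ± 2.69, with pairings from -0.92 to 0.55. Ctsz (gene 64138, chromosome 2, 174427493 to 174439039, minus strand), a carboxypeptidase, had means of 8.06 ± 2.88 and 8.16 ± 2.60, with pairings from -0.10 to 0.75. All 3 had pairings on both sides of 0, with 4 of 6 above it in each.

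Lgmn (gene 19141, chromosome 12, 102394084 to 102439813, minus strand), which also converts several cathepsins into their mature chains, differed more between stretches of regression than between the groups. Its means were 7.89 ± 2.80 at baseline and 7.40 ± 2.98 in regression, which differ by -0.49. Regression cells 1 to 20 stood at 5.74 ± 3.18, cells 93 to 111 at 8.78 ± 2.76 and cells 168 to 244 at 7.50 ± 2.81, while the baseline stretches stood at 7.90 and 7.87. The pairings ran from -2.16 to 0.91. The median RPKM was 68.2 in cells 1 to 20 and 938.2 in cells 93 to 111, and an RPKM of 100 or more was reached by 45.0% and 83.3% of their cells. Both stretches carry the same label, so the group mean of Lgmn sits between unlike stretches. The median cell of stretch 93 to 111 listed 1892.5 genes, the lowest of the 5 stretches, and that of stretch 1 to 20 listed 2669, the highest.

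**Figure D4:**
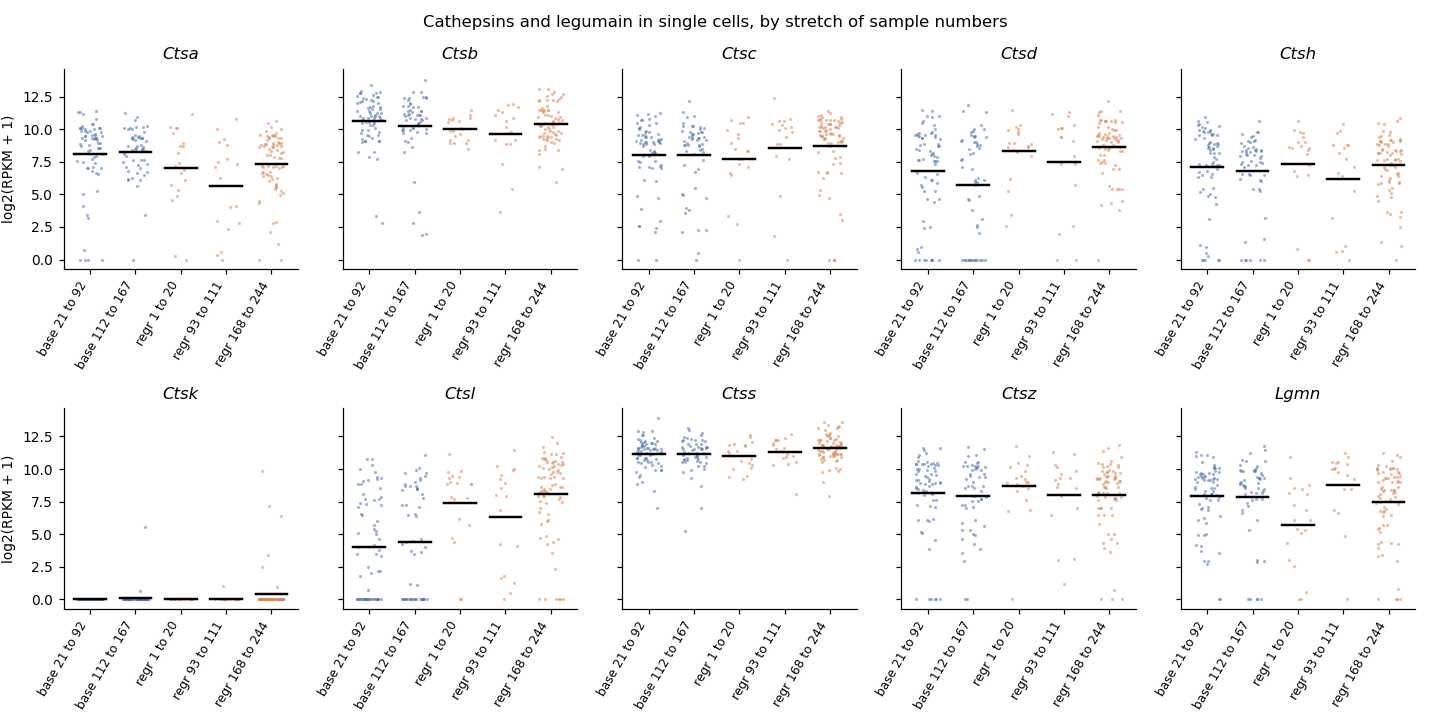
Level of each member in each cell, as log2(RPKM + 1), by stretch of sample numbers, with 1 point per cell and a black line at the mean of each stretch. Ctsl and Ctsd are higher and Ctsa is lower in the 3 regression stretches than in the 2 baseline stretches, and Lgmn is lowest in regression cells 1 to 20 and highest in regression cells 93 to 111.

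Ctsk (gene 13038, chromosome 3, 95499256 to 95509362, plus strand), the collagen-cutting cathepsin of osteoclasts, lies 17424 bases from Ctss. It was listed in 1 of 125 baseline cells (0.80%, CI 0.02 to 4.38%) and 6 of 113 regression cells (5.31%, CI 1.97 to 11.2%), so the intervals overlap. Of the 6 regression cells, 5 were among cells 168 to 244. The RPKM was 45.9 in the baseline cell, and 924.8, 140.5, 82.7, 9.44, 4.75 and 1.07 in the regression cells. Acp5, which encodes another osteoclast enzyme, was listed in 4 of these 7 cells, each with no other osteoclast marker of the 5 searched. The other 3 cells, which hold the 3 highest Ctsk values, listed none of them.

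The order of levels was not the same in the groups, but most neighbours in it lie within the spread over cells. At baseline it ran Ctss, Ctsb, Ctsa, Ctsz, Ctsc, Lgmn, Ctsh, Ctsd, Ctsl and Ctsk. In regression it ran Ctss, Ctsb, Ctsc, Ctsd, Ctsz, Ctsl, Lgmn, Ctsh, Ctsa and Ctsk. In each group, only the last step, down to Ctsk, was larger than the SD over cells of both genes (4.14 from Ctsl at baseline and 6.74 from Ctsa in regression). The next largest steps were from Ctsb to Ctsa at baseline (2.34) and from Ctsb to Ctsc in regression (1.69). RPKM is scaled by transcript length, which allows this comparison between genes. Ctsa went from place 3 to place 9. The median rank of Ctsl among all genes of a cell was 1608 at baseline and 324 in regression, that of Ctsd 581 and 256, and that of Ctsa 277 and 534.

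Across cells of the same stretch, members went together weakly. The mean r over the 5 stretches for 36 pairs of 9 members had a median of 0.23 and ran from -0.07 (Ctss and Ctsz) to 0.39 (Ctsd and Ctsl), and 16 pairs were above 0 in every stretch. These r values are descriptions, since cells share library preparation and depth. The r of Ctsd and Ctsl ran from 0.03 to 0.61 between stretches, and that of Ctsb and Lgmn, with a mean of 0.37, from 0.29 to 0.46. The number of genes a cell listed went with Ctsl at 0.40, with Ctsd and Ctsh at 0.39 each and with Ctss at 0.11.

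The 3 genes whose levels were most like each member were read the same way, among 2983 genes listed in at least 25% of cells of both groups. Values are again means of r over the 5 stretches; over all 2983 genes the median was 0.033 to 0.093, depending on the member, and genes picked as the highest lie above it by choice. Those of Ctsl were Cd63, a tetraspanin of late endosomes, Rbpj, the Notch transcription factor (0.41 each), and C3ar1, the receptor for complement C3a (0.38). Those of Ctsd were Spp1, which encodes osteopontin (0.40), the macrophage lysosomal glycoprotein Cd68 (0.39) and the proton pump subunit Atp6v1g1 (0.37). Those of Lgmn were Cd63 (0.45), the lectin Lgals1 (0.43) and the proteoglycan Sdc4 (0.42). Ctsb went with the ferritin chain Ftl1 (0.42), Adgre1, which encodes F4/80 (0.34), and Cd68 (0.33), and Ctss with the ferritin chain Fth1 (0.38), 2410006H16Rik (0.35) and Ftl1 (0.31). Ctsa had Lilrb4a (0.34), Sept2 and Zfp36l2 (0.31 each). For Ctsc they were Ssr1 (0.47), Ly86 (0.37) and Trf (0.36), for Ctsh Capza2, Zfand5 and Nap1l1 (0.34 each), and for Ctsz Tceb2 (0.40), Rplp1 (0.37) and Dhrs3 (0.36). Single stretches spread widely around these means, as for Ctsb and Cd68 (-0.06 to 0.58), Ctsa and Sept2 (0.0065 to 0.60) and Ctsd and Atp6v1g1 (0.0087 to 0.63).

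Other genes of the cathepsin system were read against the same shares of all genes, 5.60% higher and 7.37% lower by 1 or more. The inhibitors, of which 14 were in the table and 3 passed the filter, gave none higher and 1 lower, Serpinb6a (3.98 at baseline, 1.98 in regression). Cst3, which encodes the secreted inhibitor cystatin C, was at 11.74 and 11.00, a difference of -0.75. All its regression stretch means lay below all its baseline stretch means. Of 11 genes for the sorting of lysosomal enzymes, 5 passed and none differed by 1 or more, with the largest differences in Gnptg (-0.68, too rarely listed to pass) and Scarb2 (0.60). Of 14 other cathepsins, 9 were listed in no cell and 1 passed, Ctso, with a difference of 0.28. Ctsf was listed in 13 baseline and 3 regression cells.

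Among the partners of Ctsa, Neu1, the neuraminidase it protects, was higher in regression by 0.70 (1.43 at baseline, 2.13 in regression) with stretches that overlap: regression cells 93 to 111 stood at 1.09, below both baseline stretches (1.48 and 1.36). Galns (0.34) and Glb1, the beta-galactosidase (-0.06), were too rarely listed to pass. Of 4 factors that drive lysosomal genes, 2 passed, Mitf (0.60) and Tfe3 (0.32). All 4 partners of cathepsins L and S in antigen presentation passed and differed by 1 or more in size, 3 lower and 1 higher. Cd74, the invariant chain, differed by -3.87, H2-DMb1 by -1.86 and H2-DMa by -1.76, while Ifi30, a lysosomal thiol reductase, differed by 1.20. Stretch means of H2-DMa and H2-DMb1 overlapped between the groups. Those of Cd74 did not, but regression cells 93 to 111 (10.60) lay close to the baseline stretches (11.22 and 11.13). Regression cells 1 to 20 stood at 7.15 and cells 168 to 244 at 6.55. Of 20 other lysosomal genes that passed, 1 was higher by 1 or more, the membrane protein Lamp1 (4.77 and 7.47, a difference of 2.70), and 6 were lower, among them Ppt1, a lysosomal thioesterase (-2.13), with a median of -0.30. The 1 of 20 on the higher side is near the share over all genes.

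Some markers of the sorted cells and of other cells differed between the groups. Of all genes that passed, 5.60% were higher and 7.37% lower by 1 or more. In 12.4%, all regression stretch means lay above all baseline stretch means. Of the monocyte markers, 4 of 6 passed, with a median difference of 1.34, and 2 were higher by 1 or more. These were Ccr2, the receptor for the chemokine CCL2 (2.03), and Chil3 (1.75). Each had all regression stretch means above all baseline stretch means. The other 2 that passed went apart: Vcan was higher by 0.94, and Plac8 was lower, with a difference of -0.85. Ly6c2 differed by -0.32 and did not pass. Of the 10 macrophage markers, 1 was higher by 1 or more, Itgam, which encodes CD11b (1.64), and 2 were lower, Adgre1 (-1.19) and Cd68 (-1.05). The 1 of 10 on the higher side is not far from the share over all genes. Ppbp, a platelet chemokine, was listed in 0 baseline and 11 regression cells. At least 3 of 6 classical monocyte markers were listed in 21 baseline cells (16.8%) and 31 regression cells (27.4%), and their summed level, as log2(summed RPKM + 1), ran from 0 to 12.74 (median 7.72) and from 0 to 13.91 (median 8.59). Neutrophil markers did so in 2 and 5 cells, and their summed level ran to 14.11 and 14.87. Of single neutrophil markers, S100a8 was listed in 11 baseline and 27 regression cells and S100a9 in 8 and 19. Cxcr2 was listed in 50 and 47, Retnlg in 1 and 0, and Ly6g, Mpo and Elane in none. At least 3 dendritic cell markers were listed in 4 and 0 cells, fibroblast markers in 2 and 0, and T and NK cell markers in 0 and 1. No cell listed 3 markers of B cells, mast cells, endothelium, smooth muscle, adipocytes, erythroid cells and platelets, or osteoclasts. The part of these markers in the differences of the members was not tested. Without the 8 baseline and 6 regression cells that listed 3 or more markers of a type other than macrophages, monocytes and osteoclasts, the differences were 3.33 for Ctsl, 2.08 for Ctsd and -1.28 for Ctsa.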

How the data were processed

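Cells were captured on C1 chips, and SMARTer Ultra Low cDNA was turned into Nextera XT libraries, per the labels' protocols; the chemistry carries no molecular identifiers and does not mark strand. The authors deposited RPKM values for 24475 genes in 244 libraries. Per the submitters' processing notes, the build was mm10, and CASAVA 1.8.2 and FastQC were used. The aligner, the annotation and the RPKM program were not given in the sources used here. RPKM is not a count, so no count model was used.

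Columns were matched to samples by the number in the title. Libraries with r above 0.9 were averaged, and cells listing under 1000 genes (RPKM of 1 or more) were dropped. Depth was estimated from the steps of low values, in libraries where separate gene sets gave the same step within 10%; in the median library 58.1% (baseline) and 59.1% (regression) of those values were whole reads to within 0.1. Values were compared as log2(RPKM + 1), with no test because each group is 1 sample. Intervals are exact 95% binomial ones. Doublets were not called. Gene positions come from GENCODE vM21. The computation was tested on simulated data, in which both groups were drawn from baseline cells and some genes were multiplied by a set factor. Values of 0 stay at 0 in that setting, so it does not cover differences in the share of cells without a gene. Python 3.11.15, numpy 2.4.6, pandas 2.3.3, scipy 1.17.1 and matplotlib 3.10.9 were used.

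All 10 members are named, with the 3 genes most like each and the 2 of each list that differ most in absolute size; other genes are examples named after their values were seen. A gene that this rule takes from the other lysosomal genes is not reported here. The members and lists were chosen with earlier results of these data known. Alternatives were other pseudocounts, scalings, filters, summaries, cell sets and stretches left out. Results for cells that do not list Pltp and for an RPKM of 100 or more were added after seeing the data. Gene symbols in the list of inhibitors matched 14 of 16.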

Additional observations from a re-analysis of the deposited data

How the results depend on the processing

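Over 16 alternatives (17 for Ctsa), differences kept their sign for Ctsl (1.80 to 4.59), Ctsd (0.72 to 2.66), Ctsa (-1.79 to -0.49), Ctsb, Ctsc and Lgmn, and changed it in some for Ctsh, Ctsz, Ctss and Ctsk. Ctsl was 4.47 with a pseudocount of 0.1, 2.43 with a pseudocount of 10, 1.80 as the log2 ratio of mean RPKM, and 4.59 as the difference of medians; Ctsd was 0.72 as the log2 ratio of mean RPKM. With that ratio, the count of members higher by 1 or more was 1 in place of 2. The count lower was 0 in place of 1 with a pseudocount of 10, with the ratio of mean RPKM, in cells with at least 2000 genes and without cells 93 to 111, where Ctsa was -0.98, -0.73, -0.64 and -0.87. The cause was not tested. No paired analysis was possible because the labels name no animal, and each sample number stands for 1 library only. Depth could be estimated for part of the libraries, and low genes in shallow cells may be listed at 0.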
